A study of Mus musculus with 10 samples.

Results

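The genes described here are 39 mouse genes used as markers of macrophages, monocytes and dendritic cells, or needed for these cells to form and act. They were listed by symbol, and the C1q complement chains and the MHC class II genes were left out of the list. The row name of each is its Entrez gene number, and 38 of the 39 genes had a row among the 23111 named genes of the table. No signal of Lyz2, the lysozyme gene of myeloid cells, is analysed here. The 38 were sorted by known function into 6 role lists, which hold 4 genes of the Csf1 axis and its transcription factors, 10 surface genes of tissue macrophages, 3 monocyte genes, 6 dendritic cell genes, 6 Fc receptors and signalling adaptors, and 9 genes of phagocytosis, lysosomes and lipid handling.

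RNA was profiled in 10 colon tumours, 5 from Ucp2+/+ mice (WT, replicates 1 to 5) and 5 from Ucp2-/- mice (KO, replicates 6 to 10), all labelled C57BL6/J. Every mouse had gone through the AOM/DSS protocol, in which the carcinogen azoxymethane is combined with the colon irritant dextran sodium sulphate, and tumours were taken 15 weeks after its start. Ucp2 encodes a carrier of the inner mitochondrial membrane. The labels do not say how the deletion was made, which sex and age the animals had, or whether each sample came from a mouse of its own. A p-value here therefore reflects the spread of these samples, which may be partly technical. No batch is named.

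Macrophages of the colon are replaced throughout life by monocytes that leave the blood, enter the mucosa through the chemokine receptor Ccr2 and mature there. Maturing cells lose Ly6c and gain Adgre1, Cx3cr1 and, in part, Mrc1 and Cd163, while the growth factor Csf1 acts through its receptor Csf1r to keep them alive. Dendritic cells come from precursors that depend on the receptor Flt3, and the subset that presents antigen to CD8 T cells carries Xcr1. The transcription factor PU.1, encoded by Spi1, is needed for all of these lineages.

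Values are log2 signals, 1 per gene and array, and a difference is KO minus WT with the standard error (SE) of the limma fit. Medians of the arrays lay between 5.84 and 5.93 and correlations between arrays between 0.965 and 0.993. The tissue label is borne out by the epithelial genes Epcam and Krt8, whose means were 11.37 and 11.69 in WT and 11.35 and 11.74 in KO. The probe set with the gene number of Ucp2 read 10.84 to 11.55 in WT and 9.73 to 9.97 in KO, so the groups did not overlap, but signal was left in KO, and the labels do not say where its probes lie relative to the deletion. No detection call came with the values. A guide to background was therefore taken from 1088 olfactory receptor genes, whose mean signals had a 95th percentile of 5.14. The mean over 10 arrays was above this guide for 30 of the 38 genes, and the other 8 (Cd163, Folr2, Siglec1, Vsig4, Timd4, Cd209a, Clec10a and Xcr1) may hold mostly background.

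KO tumours had more signal than WT tumours for a large part of these genes, by 1.14 to 1.51-fold. At an unadjusted limma p under 0.05, 15 of the 38 had more signal in KO and 0 had less, where 2.22% of all genes tested had more and 2.55% less. At an unadjusted p under 0.01 it was 10 of the 38, against 0.437% of all genes, and 1 of the 15, Fcgr4, also reached 1.5-fold, against 0.368% of all genes. The 15 were Itgax, Ms4a7, Fcer1g, Cd68, Csf1r, Spi1, Fcgr3, Mrc1, Adgre1, Tyrobp, Maf, Fcgr4, Cd86, Lgmn and Laptm5. The difference was positive in 33 of 38, against 42.2% of all genes. The members were chosen with earlier results of these data known, so these counts are a description and not separate support. After Benjamini-Hochberg adjustment over all 23111 genes, limma called 0 of the 38 (adjusted p of 0.910 to 0.994) and 0% of all genes, so no single gene of the set passed the test across the array. In bulk tumour tissue a larger number of cells of a type and more RNA per cell cannot be told apart.

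The median difference of the 38 was 0.20 and that of all genes -0.02. Of the 8 genes under the guide, 3 differences were positive and 5 negative, and 0 reached unadjusted p under 0.05. Flt3 was above the guide through its KO mean of 5.26, its WT mean being 5.07. In Mrc1, Fcgr3 and Lgmn every KO tumour lay above every WT tumour, which is 3 of 38 against 0.329% of all genes, and in 0 did every KO tumour lie below (0.506% of all genes). This number was 12 without KO replicate 6 (0.948% of all genes), 8 without WT replicate 2 (0.736%), and 5 when either WT replicate 3 (0.839%) or WT replicate 4 (0.688%) was left out. It was 1 after centring or quantile normalizing the arrays again and 0 after cyclic loess.

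**Figure D1:**
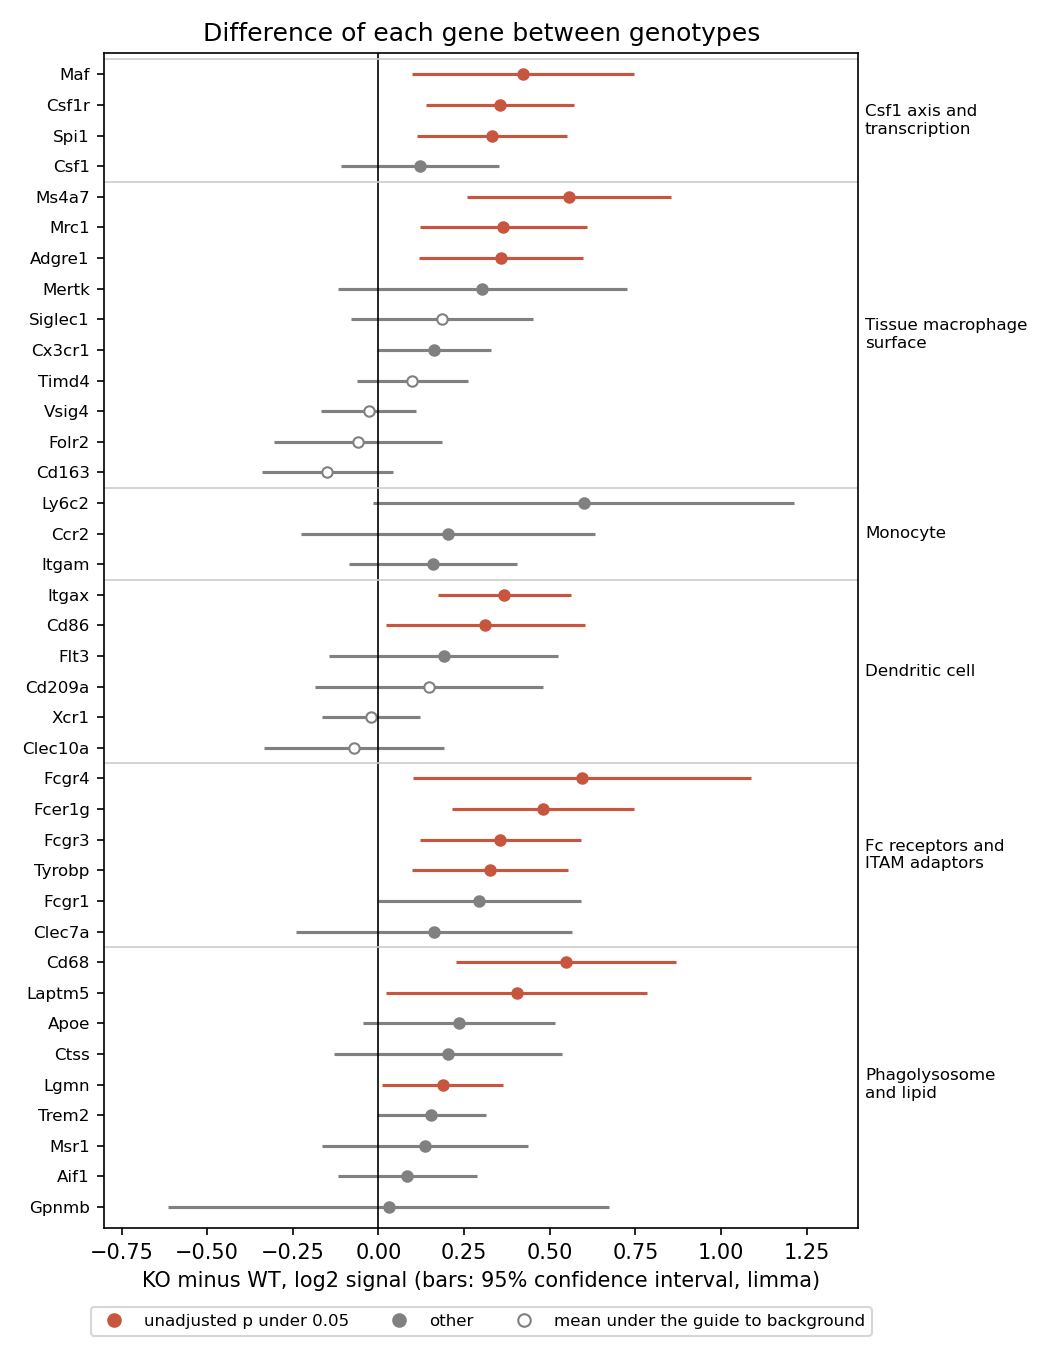
Difference between genotypes (KO minus WT, log2 signal, horizontal axis) for the 38 genes, grouped by role list. Points are the limma estimates from 5 WT and 5 KO arrays and bars their 95% confidence intervals; the 15 red genes have unadjusted p under 0.05 and all lie to the right of 0, and open points are the 8 genes whose mean signal is under the guide to background.

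Of the 4 genes of the Csf1 axis and its transcription factors, 3 were at unadjusted p under 0.05, against 2.22% of all genes. Csf1r encodes the receptor on which macrophages depend for survival. In WT replicates 1 to 5 Csf1r had signals of 7.68, 8.00, 7.98, 7.90 and 7.91, and in KO replicates 6 to 10 of 7.99, 8.49, 8.33, 8.15 and 8.28. Its lowest KO tumour lay just under the highest WT tumour and the other 4 KO tumours lay above all WT tumours, a difference of 0.35 ± 0.10 (SE) or 1.28-fold (limma unadjusted p = 0.00403).

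Csf1, the ligand made largely by stromal and epithelial cells, did not show this pattern. Signals of Csf1 were 7.47, 7.62, 7.32, 7.24 and 7.39 in WT replicates 1 to 5 and 7.73, 7.42, 7.33, 7.40 and 7.75 in KO replicates 6 to 10. The genotypes overlapped along most of their range and the difference was 0.12 ± 0.10 (SE) (unadjusted p = 0.269), with a 95% confidence interval of -0.11 to 0.35. The receptor and its ligand therefore had differences of 0.35 and 0.12 in the same arrays, and the gap between them was not tested.

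Spi1 encodes PU.1, the factor that switches on Csf1r and many other myeloid genes. The 5 WT tumours had Spi1 signals of 6.52, 6.36, 6.69, 6.54 and 6.47 (replicates 1 to 5), and the 5 KO tumours had 6.60, 6.85, 7.15, 6.83 and 6.80 (replicates 6 to 10). In 4 of 5 KO tumours the signal was above all WT tumours and KO replicate 6 lay among the WT values, with a difference of 0.33 ± 0.10 (SE) (unadjusted p = 0.00651). Maf encodes c-Maf, a factor of mature macrophages that is also made by T-cell subsets and other cells. For Maf the WT tumours (replicates 1 to 5) gave 6.98, 7.35, 7.23, 7.09 and 6.97 and the KO tumours (replicates 6 to 10) gave 7.39, 8.08, 7.58, 7.24 and 7.42. KO replicate 7 stood highest and KO replicate 9 lay below the highest WT tumour, a difference of 0.42 ± 0.15 (SE) (unadjusted p = 0.0155).

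Because PU.1 binds next to the start sites of many myeloid genes, the 250 bases before the annotated start were searched for short runs of letters found inside its binding sites. RefSeq windows (GRCm38.p6) were at hand for 30 of the 39 genes, Lyz2 included. The 6 letters GAGGAA, on either strand, were found in 14 of these 30 genes (46.7%) and in 25.9% of 27025 genes with a window, and the overlapping 7 letters AGGAAGT in 6 of 30 (20.0%) and 8.80% of all. TGCTGA, part of the site of MAF factors, was found in 7 of 30 (23.3%) and 18.02% of all. Of the 15 genes at unadjusted p under 0.05, 9 had a window and 5 of these held GAGGAA. Of the 5, all but Laptm5 are shown, together with Itgax, which had the lowest p of the 38 genes and no match in this window. Capitals mark GAGGAA or AGGAAGT, or their reverse complement, and each run is the gene's own strand, 5′ to 3′.
Mrc1 (chr2:14229164-14229413, plus strand): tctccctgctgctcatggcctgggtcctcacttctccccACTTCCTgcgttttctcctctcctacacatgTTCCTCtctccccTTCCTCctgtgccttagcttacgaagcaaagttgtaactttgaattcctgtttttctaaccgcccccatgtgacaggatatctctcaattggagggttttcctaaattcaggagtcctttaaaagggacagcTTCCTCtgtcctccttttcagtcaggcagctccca
Fcgr3 (chr1:171059404-171059653, minus strand): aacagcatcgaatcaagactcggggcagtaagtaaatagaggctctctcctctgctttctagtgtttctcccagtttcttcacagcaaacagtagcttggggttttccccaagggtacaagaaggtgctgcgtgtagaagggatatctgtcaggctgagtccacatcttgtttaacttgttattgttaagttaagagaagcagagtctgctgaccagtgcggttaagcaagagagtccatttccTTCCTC
Fcgr4 (chr1:171018676-171018925, plus strand): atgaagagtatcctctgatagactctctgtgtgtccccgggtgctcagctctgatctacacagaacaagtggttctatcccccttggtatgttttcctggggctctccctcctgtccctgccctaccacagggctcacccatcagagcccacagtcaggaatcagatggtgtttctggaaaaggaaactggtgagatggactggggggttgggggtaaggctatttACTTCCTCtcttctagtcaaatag
Cd68 (chr11:69666171-69666420, minus strand): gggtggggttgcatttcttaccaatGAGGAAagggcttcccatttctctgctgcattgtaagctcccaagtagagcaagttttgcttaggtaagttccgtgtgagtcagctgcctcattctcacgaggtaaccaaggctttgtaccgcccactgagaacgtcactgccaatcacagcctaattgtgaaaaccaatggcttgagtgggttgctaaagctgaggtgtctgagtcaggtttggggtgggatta
Itgax (chr7:128129300-128129549, plus strand): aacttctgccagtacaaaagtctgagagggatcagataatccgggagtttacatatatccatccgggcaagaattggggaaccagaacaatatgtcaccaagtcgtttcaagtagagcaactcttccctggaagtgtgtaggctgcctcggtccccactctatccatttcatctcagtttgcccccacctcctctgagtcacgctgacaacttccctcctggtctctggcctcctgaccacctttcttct
The matches sit at different places: beside the start in Fcgr3 and Fcgr4, at 4 places in Mrc1 and at the far end of the window in Cd68. A match is a run of letters and not a measured binding site.

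The surface genes of tissue macrophages divided by brightness. Of the 10, 3 were at unadjusted p under 0.05, against 2.22% of all genes, and these 3 were among the 5 above the guide to background. Ms4a7 encodes a four-span membrane protein of mature macrophages. Ms4a7 read 7.18, 7.51, 6.94, 6.80 and 7.05 in WT replicates 1 to 5 and 7.38, 7.92, 7.61, 7.65 and 7.68 in KO replicates 6 to 10. WT replicate 2 reached above the lowest KO tumour and the other 4 WT tumours lay below all KO tumours, a difference of 0.56 ± 0.13 (SE) or 1.47-fold (unadjusted p = 0.00175).

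Mrc1 encodes the mannose receptor CD206, an endocytic lectin whose upstream sequence is printed above. In WT replicates 1 to 5 Mrc1 had signals of 8.07, 8.29, 8.26, 8.26 and 7.98, and in KO replicates 6 to 10 of 8.46, 8.73, 8.81, 8.31 and 8.37. The groups did not overlap, although the highest WT and the lowest KO tumour were only just apart, and the difference was 0.36 ± 0.11 (SE) (unadjusted p = 0.00736). Adgre1 encodes an adhesion receptor that serves as the classical surface antigen of mouse macrophages. Signals of Adgre1 were 6.60, 6.91, 6.40, 6.79 and 6.80 in WT replicates 1 to 5 and 6.90, 7.33, 7.02, 6.99 and 7.05 in KO replicates 6 to 10. Of the KO tumours replicate 6 lay within the WT range, just under WT replicate 2, and the difference was 0.36 ± 0.11 (SE) (unadjusted p = 0.00740).

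Cx3cr1, the fractalkine receptor of colonic macrophages, and Mertk, which takes up dying cells, were above the guide and overlapped between genotypes. Cx3cr1 ranged from 7.21 to 7.47 in WT and from 7.40 to 7.68 in KO, a difference of 0.16 ± 0.08 (SE) (unadjusted p = 0.0545). Mertk ranged from 7.02 to 7.80 in WT and from 7.49 to 8.44 in KO, a difference of 0.30 ± 0.19 (SE) (unadjusted p = 0.142), or 0.15 without KO replicate 7, its highest tumour, and 0.18 without WT replicate 5, its lowest.

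The remaining 5 surface genes are those most used for long-lived resident macrophages, and their mean signals were under the guide. Cd163, the haemoglobin scavenger receptor, was one of them. The 5 WT tumours had Cd163 signals of 4.05, 3.56, 3.89, 3.71 and 3.79 (replicates 1 to 5), and the 5 KO tumours had 3.63, 3.55, 3.67, 3.69 and 3.69 (replicates 6 to 10). Every KO tumour lay below the WT mean, but WT replicate 2 was as low as they were, and the difference of -0.15 ± 0.09 (SE) had an unadjusted p of 0.114. Without WT replicate 2 the genotypes did not overlap and the difference was -0.21 (unadjusted p = 0.0232), so that 1 of the 38 genes was then lower in KO by that threshold. Timd4, the phosphatidylserine receptor of self-renewing gut macrophages, was another. For Timd4 the WT tumours (replicates 1 to 5) gave 4.55, 4.56, 4.73, 4.52 and 4.61 and the KO tumours (replicates 6 to 10) gave 4.58, 4.71, 4.90, 4.66 and 4.61. The genotypes overlapped, with a difference of 0.10 ± 0.07 (SE) (unadjusted p = 0.206). Folr2, the folate receptor of perivascular macrophages, Vsig4, a complement receptor, and Siglec1, a sialic acid lectin, had differences of -0.06 ± 0.11 (SE), -0.03 ± 0.06 (SE) and 0.19 ± 0.12 (SE). At these signals no fold change is given, and an absence of difference cannot be told from an absence of measurable RNA. Folr2 lies on chromosome 7 only 21 measured genes from Ucp2, so DNA next to the deleted gene could differ between genotypes there; its part in the value was not tested.

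**Figure D2:**
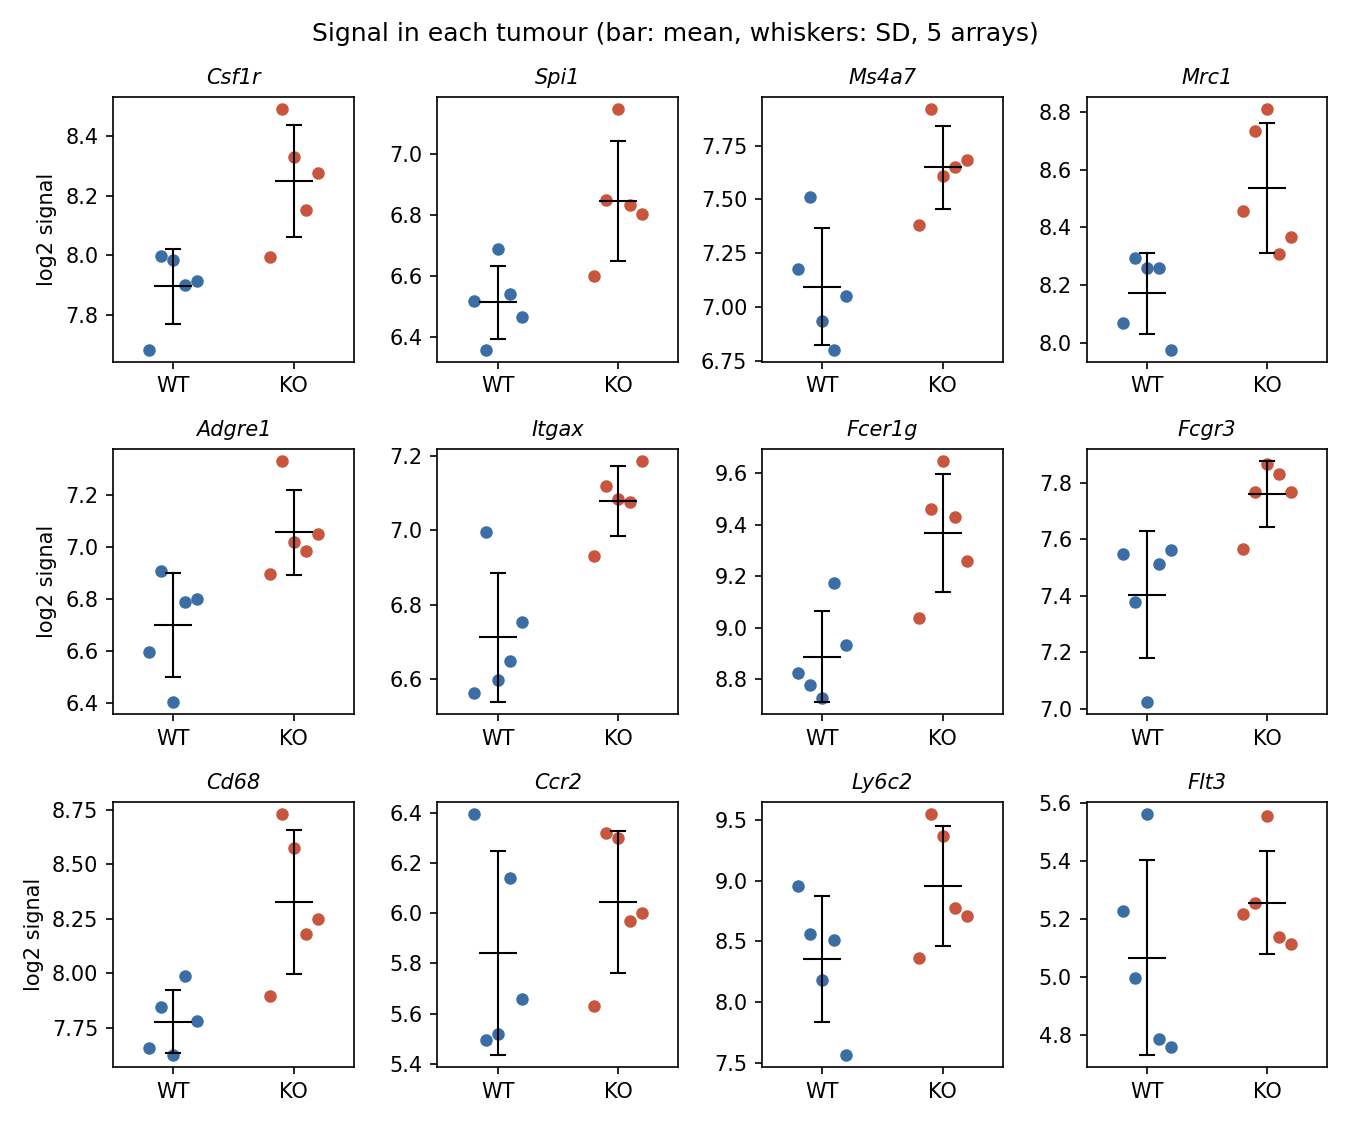
Log2 signal of 12 genes in each tumour (vertical axis, its own range per gene), 5 WT in blue and 5 KO in red, with the mean as a bar and the SD as whiskers. In Csf1r, Ms4a7, Mrc1, Itgax, Fcer1g and Cd68 4 or 5 of the KO tumours lie above all WT tumours. In Ccr2 and Flt3 the WT tumours spread over the whole KO range, and in Ly6c2 KO replicates 7 and 8 lie above all WT tumours.

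Monocyte genes gave 0 of 3 at unadjusted p under 0.05, and 3 genes are too few to tell this from the 2.22% of all genes. Ccr2 encodes the chemokine receptor that brings monocytes into tissue. Ccr2 read 6.40, 5.49, 5.52, 6.14 and 5.66 in WT replicates 1 to 5 and 5.63, 6.32, 6.30, 5.97 and 6.00 in KO replicates 6 to 10. WT replicate 1 was the highest of all 10 tumours and the difference was 0.20 ± 0.19 (SE) (unadjusted p = 0.319; 95% confidence interval -0.23 to 0.63). It was 0.34 without WT replicate 1 (unadjusted p = 0.0743) and 0.12 without WT replicate 2. Ly6c2 encodes the surface protein that marks newly arrived monocytes. In WT replicates 1 to 5 Ly6c2 had signals of 8.96, 8.56, 8.19, 8.51 and 7.56, and in KO replicates 6 to 10 of 8.36, 9.55, 9.37, 8.77 and 8.71. KO replicates 7 and 8 stood above all WT tumours and WT replicate 5 lowest, and the difference was 0.60 ± 0.28 (SE), the highest of the 38 genes, with an unadjusted p of 0.0550. It was 0.75 without WT replicate 1 and also without KO replicate 6 (unadjusted p = 0.0215 and 0.0227), 0.40 without WT replicate 5, and 0.32 with the score of the epithelial markers as a covariate. Ly6c1 is a near-identical neighbour of Ly6c2, so this signal is uncertain as to which of them it measures. The row of Ly6c1 itself was dimmer, with means of 5.16 in WT and 5.66 in KO, and differed by 0.50 ± 0.34 (SE). Itgam, the CD11b integrin chain shared by monocytes, macrophages and neutrophils, ranged from 7.23 to 7.63 in WT and from 7.37 to 7.85 in KO, a difference of 0.16 ± 0.11 (SE) (unadjusted p = 0.183).

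Of the 6 dendritic cell genes, 2 were at unadjusted p under 0.05, against 2.22% of all genes, and both are also made by macrophages. Itgax encodes CD11c, an integrin chain carried by dendritic cells and by gut macrophages. Signals of Itgax were 6.56, 7.00, 6.60, 6.65 and 6.75 in WT replicates 1 to 5 and 6.93, 7.12, 7.08, 7.08 and 7.19 in KO replicates 6 to 10. All KO tumours but replicate 6 lay above all WT tumours, and all WT tumours but replicate 2 lay below all KO tumours, a difference of 0.37 ± 0.09 (SE) or 1.29-fold (unadjusted p = 0.00161). Itgax and Itgam lie next to each other on chromosome 7, 527 and 526 measured genes from Ucp2, and had differences of 0.37 and 0.16.

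Cd86 encodes a co-stimulatory ligand for T cells. The 5 WT tumours had Cd86 signals of 6.66, 6.80, 6.77, 6.73 and 6.34 (replicates 1 to 5), and the 5 KO tumours had 6.59, 6.97, 7.33, 7.05 and 6.92 (replicates 6 to 10). KO replicate 6 lay below 4 WT tumours and the other KO tumours above all of them, a difference of 0.31 ± 0.13 (SE) (unadjusted p = 0.0375). The p was 0.0513 to 0.0928 when WT replicate 1 or 5 or any of KO replicates 7 to 10 was left out. Flt3, the receptor on which dendritic cell precursors depend, had its 2 highest values in WT replicate 3 and KO replicate 8. For Flt3 the WT tumours (replicates 1 to 5) gave 5.23, 4.996, 5.56, 4.79 and 4.76 and the KO tumours (replicates 6 to 10) gave 5.22, 5.26, 5.56, 5.14 and 5.11. The difference was 0.19 ± 0.15 (SE) (unadjusted p = 0.238), or 0.31 without WT replicate 3 (unadjusted p = 0.0265).

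Xcr1, the chemokine receptor of cross-presenting dendritic cells, was under the guide in every tumour. Xcr1 read 4.75, 4.60, 4.71, 4.54 and 4.54 in WT replicates 1 to 5 and 4.52, 4.62, 4.54, 4.66 and 4.68 in KO replicates 6 to 10. The difference was -0.02 ± 0.06 (SE) and took either sign when single arrays were left out. Cd209a, a C-type lectin of monocyte-derived and CD11b dendritic cells, and Clec10a, a galactose lectin of macrophages and dendritic cells, were under the guide too, with differences of 0.15 ± 0.15 (SE) and -0.07 ± 0.12 (SE). Of this role list, then, Itgax and Cd86 had means above the guide in both genotypes, and Flt3 in KO only.

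Receptors for antibody and their signalling adaptors gave 4 of 6 at unadjusted p under 0.05, against 2.22% of all genes. Fcer1g encodes the common Fc receptor gamma chain, the adaptor that carries the ITAM signalling motif for activating Fc receptors. In WT replicates 1 to 5 Fcer1g had signals of 8.82, 8.78, 8.73, 9.17 and 8.93, and in KO replicates 6 to 10 of 9.04, 9.46, 9.65, 9.43 and 9.26. Only KO replicate 6 lay within the WT range and the difference was 0.48 ± 0.12 (SE) or 1.39-fold (unadjusted p = 0.00212). Tyrobp encodes DAP12, an ITAM adaptor that pairs with Trem2 and other receptors. Signals of Tyrobp were 7.26, 7.19, 7.04, 7.48 and 7.38 in WT replicates 1 to 5 and 7.31, 7.61, 7.78, 7.63 and 7.64 in KO replicates 6 to 10. Again the KO tumours except replicate 6 lay above all WT tumours, a difference of 0.32 ± 0.10 (SE) (unadjusted p = 0.00950).

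Fcgr3 encodes an activating receptor for IgG of low affinity, found on macrophages, neutrophils, NK cells and mast cells. The 5 WT tumours had Fcgr3 signals of 7.55, 7.38, 7.02, 7.51 and 7.56 (replicates 1 to 5), and the 5 KO tumours had 7.57, 7.77, 7.87, 7.83 and 7.77 (replicates 6 to 10). The groups did not overlap, with WT replicate 3 well below the rest and KO replicate 6 level with the highest WT tumours, and the difference was 0.36 ± 0.11 (SE) (unadjusted p = 0.00691). Fcgr4 encodes an activating IgG receptor of monocytes, macrophages and neutrophils. For Fcgr4 the WT tumours (replicates 1 to 5) gave 6.47, 5.94, 5.65, 6.38 and 5.78 and the KO tumours (replicates 6 to 10) gave 6.22, 6.63, 7.14, 7.03 and 6.18. KO replicates 6 and 10 lay within the WT range and the difference was 0.59 ± 0.22 (SE) or 1.51-fold (unadjusted p = 0.0226). It was 0.47 to 0.53 when WT replicate 3 or 5 or KO replicate 8 or 9 was left out (unadjusted p of 0.0517 to 0.0585). These receptors are close relatives, so probes may read more than 1 of them.

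Fcgr1, the receptor for IgG of high affinity, ranged from 6.72 to 7.16 in WT and from 6.83 to 7.52 in KO, a difference of 0.29 ± 0.13 (SE) (unadjusted p = 0.0514). Clec7a, the beta-glucan receptor Dectin-1, ranged from 7.43 to 8.08 in WT and from 7.55 to 8.53 in KO, a difference of 0.16 ± 0.18 (SE) (unadjusted p = 0.396). The IgG receptors and both adaptors thus had differences of 0.29 to 0.59, and Clec7a, which signals through a motif of its own, had 0.16, a value that was 0.013 without KO replicate 8 and 0.26 without KO replicate 10. Whether Clec7a differs from the other 5 was not tested.

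Among genes of phagocytosis, lysosomes and lipid handling 3 of 9 were at unadjusted p under 0.05, against 2.22% of all genes. Cd68 encodes a glycoprotein of macrophage lysosomes. Cd68 read 7.66, 7.85, 7.63, 7.99 and 7.78 in WT replicates 1 to 5 and 7.90, 8.73, 8.58, 8.18 and 8.25 in KO replicates 6 to 10. KO replicate 6 lay within the WT range and the other KO tumours above it, a difference of 0.55 ± 0.15 (SE) or 1.46-fold (unadjusted p = 0.00326). Lgmn encodes legumain, a lysosomal protease that many cell types make. In WT replicates 1 to 5 Lgmn had signals of 9.26, 9.67, 9.62, 9.55 and 9.62, and in KO replicates 6 to 10 of 9.70, 9.73, 9.73, 9.83 and 9.67. The groups did not overlap, but apart from WT replicate 1 the genotypes were separated by little, and the difference was 0.19 ± 0.08 (SE) (unadjusted p = 0.0388), or 0.12 without WT replicate 1. The p was 0.0522 to 0.0882 when WT replicate 1 or 4 or any of KO replicates 6 to 9 was left out.

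Laptm5 encodes a lysosomal membrane protein of all blood cells, B cells included. Signals of Laptm5 were 8.83, 9.15, 9.83, 9.32 and 9.09 in WT replicates 1 to 5 and 9.34, 9.89, 9.81, 9.72 and 9.49 in KO replicates 6 to 10. WT replicate 3 was the second highest of the 10 tumours, and the same tumour had the highest score of the B and plasma cell markers (1.35, against -1.09 to 0.83 in the others). The difference was 0.40 ± 0.17 (SE) (unadjusted p = 0.0400) and 0.55 without WT replicate 3, and the p was 0.0524 to 0.100 when any other WT tumour or KO replicate 7, 8 or 9 was left out. Whether B cells have a part in the Laptm5 values was not tested.

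The other 6 overlapped between genotypes. Trem2, the lipid-sensing receptor of lipid-laden macrophages, and Apoe, a lipid carrier that epithelial and stromal cells make too, had differences of 0.15 ± 0.07 (SE) and 0.24 ± 0.13 (SE) (unadjusted p = 0.0539 and 0.0906). Ctss, a cysteine protease that prepares class II molecules, Msr1, a scavenger receptor, and Aif1 (Iba1), an actin-binding protein of macrophages, had differences of 0.20 ± 0.15 (SE), 0.14 ± 0.14 (SE) and 0.08 ± 0.09 (SE). Gpnmb, a glycoprotein of lipid-laden macrophages, had the widest spread of the 9, ranging from 5.41 to 6.73 in WT and from 5.80 to 6.90 in KO. Its difference of 0.03 ± 0.29 (SE) took either sign when single arrays were left out.

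**Figure D3:**
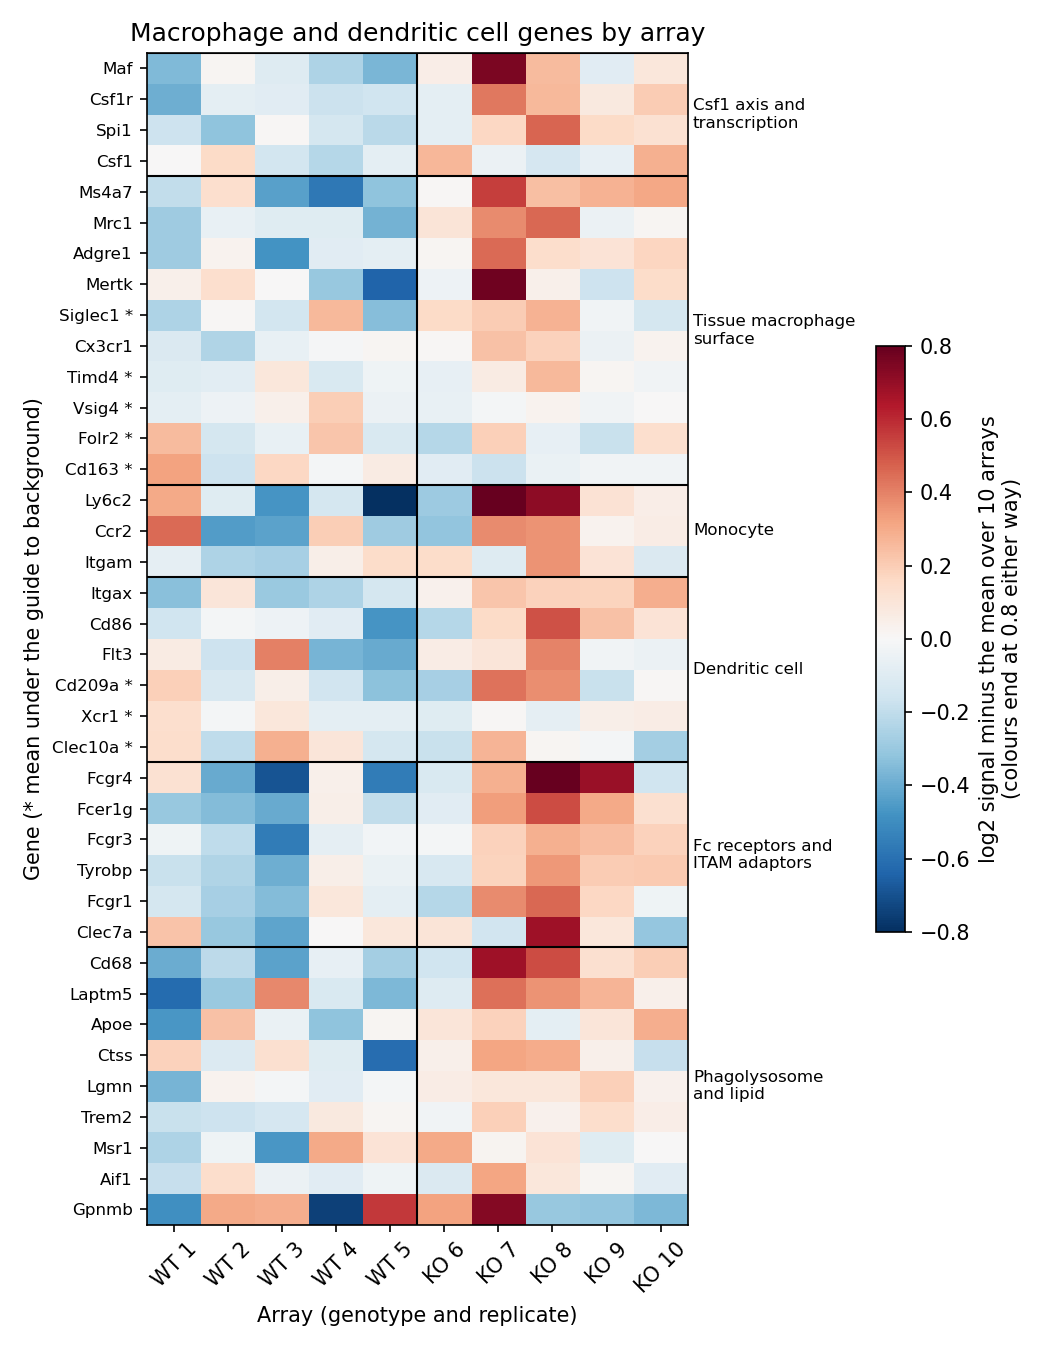
Log2 signal of the 38 genes (rows, by role list) in each of the 10 tumours (columns), as the difference from the gene's mean over the 10 arrays; red is higher and blue lower. KO replicates 7 and 8 are red in most rows, KO replicate 6 is pale, and the rows marked with an asterisk, under the guide to background, show no shared pattern.

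Tumours of the same genotype differed from each other. Over the 30 genes above the guide, the highest of the 10 tumours was KO replicate 7 in 13 genes and KO replicate 8 in 10, and it was a WT tumour in 2. The lowest was a WT tumour in all 30, WT replicate 3 in 10 and WT replicates 1 and 5 in 7 each. Flt3, which passed the guide only through its KO mean, is among the 30. Its lowest signal was in WT replicate 5 and its highest in WT replicate 3. Within KO, replicate 6 was the lowest tumour in 16 of the 30 genes. With the mean over the 30 genes of the signal minus each gene's own mean as a score, WT tumours ran from -0.20 to -0.10 and KO tumours from -0.01 in replicate 6 to 0.32 in replicate 7. The same counts of highest and lowest tumours were not made over all genes. The members were chosen with results of these tumours known, so the counts are a description and no p is given for a score.

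Set side by side, the scores of some role lists parted the genotypes and those of others did not. The lists hold from 3 to 10 genes, and the part of list size in this was not tested. The score of the 10 tissue macrophage genes was -0.19 to -0.04 in WT and -0.02 to 0.27 in KO. The genotypes did not overlap there but lay close together. They did not overlap for the Csf1 axis either (-0.23 to -0.06 and 0.02 to 0.32). For the phagolysosome genes they nearly touched without overlap (-0.31 to -0.0114 and -0.0022 to 0.33). The monocyte score overlapped, from -0.41 to 0.23 in WT and from -0.15 to 0.48 in KO, as did the dendritic cell score (-0.26 to 0.08 and -0.11 to 0.23) and that of the Fc receptors (-0.47 to 0.03 and -0.08 to 0.51). Mean differences of the full lists were 0.18 for tissue macrophage, 0.32 for monocyte and 0.15 for dendritic cell genes. But 5 of the 10 tissue macrophage and 3 of the 6 dendritic cell genes were under the guide, and 0 of the 3 monocyte genes. Over the genes above the guide, Flt3 included, the mean differences were 0.35, 0.32 and 0.29, so the monocyte genes did not lead. The monocyte score had the wider spread (SD 0.28 in WT and 0.27 in KO, against 0.06 and 0.12 for all 10 tissue macrophage genes). Above the guide the SD of the tissue macrophage score was 0.11 in WT and 0.19 in KO. Whether the lists differ from each other was not tested.

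**Figure D4:**
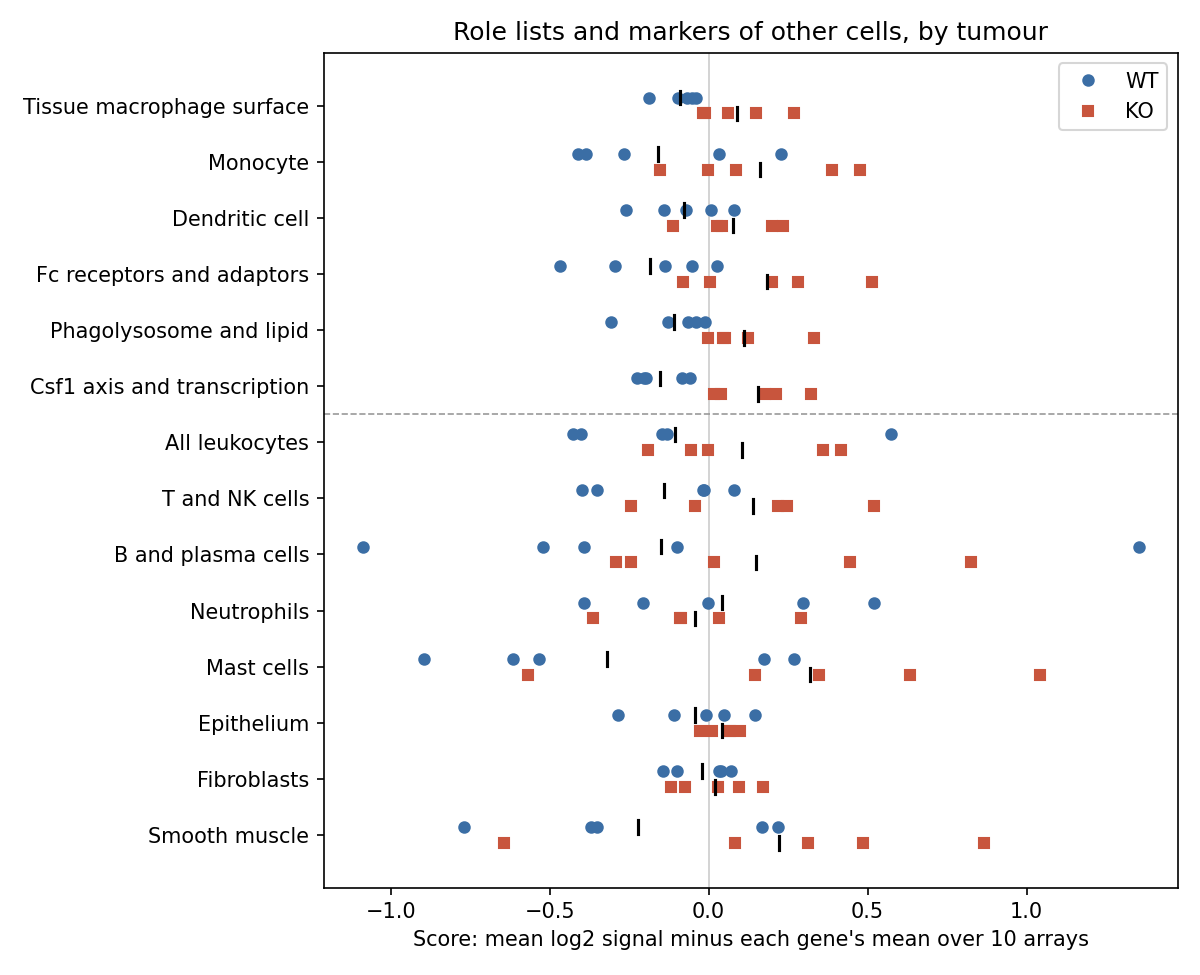
Scores by tumour (horizontal axis, mean log2 signal minus each gene's mean over 10 arrays) for the 6 role lists, above the dashed line, and for markers of other cells, below it; blue circles are WT, red squares KO and black ticks the means of 5 tumours. WT and KO do not overlap for the tissue macrophage, phagolysosome and Csf1 axis lists, and overlap for the other lists drawn.

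Markers of other cells a tumour can hold also differed between tumours. Over all genes tested, 42.2% had a positive difference. At unadjusted p under 0.05, 2.22% were higher in KO and 2.55% lower. All 9 genes shared by all leukocytes had positive differences, 0 at unadjusted p under 0.05, and Ptprc (CD45) differed by 0.20 ± 0.23 (SE). Their score was -0.43 to 0.57 in WT and -0.19 to 0.42 in KO. With this score as a covariate, 12 of the 15 genes stayed at unadjusted p under 0.05, and Cd86, Lgmn and Laptm5 did not (unadjusted p of 0.0540 to 0.0876). The difference went from 0.31 to 0.23 in Cd86 and from 0.40 to 0.24 in Laptm5, and was 0.19 with and without the covariate in Lgmn. Macrophages make these 9 genes too, so the covariate takes up part of their own signal. The score was highest in WT replicate 3 and lowest in WT replicate 5. So was the score of the B and plasma cell markers (1.35 and -1.09). How far the covariate stands for leukocytes other than B cells was not tested.

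T and NK cell markers were positive in 8 of 11, against 42.2% of all genes, and 2 of them were at unadjusted p under 0.05, against 2.22%. Their scores were -0.40 to 0.08 in WT and -0.24 to 0.52 in KO, highest in KO replicate 8. B and plasma cell markers were positive in 6 of 7 (-1.09 to 1.35 in WT and -0.29 to 0.83 in KO) and smooth muscle markers in 7 of 7 (-0.77 to 0.22 and -0.64 to 0.86, highest in KO replicate 7). The part of these cells in the values of the 38 genes was not tested.

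Neutrophils share Itgam, Fcgr3, Fcgr4 and Fcer1g with macrophages. Of 11 neutrophil markers, 9 had negative differences, as had 13354 of all 23111 genes, with scores of -0.39 to 0.52 in WT and -0.36 to 0.29 in KO. The granule genes Camp, Ngp, Mpo and Elane had means under the guide in both genotypes, while S100a9 had 6.31 in WT and 6.14 in KO. The 2 positive markers were Cxcr2, a chemokine receptor of neutrophils, with 0.59 ± 0.27 (SE), the highest difference of the 11 (unadjusted p = 0.0510), and Retnlg with 0.09 ± 0.41 (SE). The part of neutrophils in the 4 shared genes was not tested. Mast cells share Fcer1g and Fcgr3, and their 8 markers all had positive differences, against 42.2% of all genes. Mast cell scores were -0.89 to 0.27 in WT and -0.57 to 1.04 in KO. Their part in the Fcer1g and Fcgr3 values was not tested. Epithelium, fibroblast and endothelium markers were positive in 10 of 12, 7 of 9 and 4 of 6, against 42.2% of all genes, with median differences of 0.05, 0.04 and 0.05. In these lists 1 gene was at unadjusted p under 0.05, the collagen gene Col1a1, lower in KO (-0.25 ± 0.10, unadjusted p = 0.0279). Of all genes, 2.55% were lower at this threshold.

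Further genes of the same cells, outside the 39, were listed by function as well. These lists too were chosen with earlier results of these data known, so their counts are a description and not separate support. Of 36 related macrophage genes, 10 had more signal in KO at unadjusted p under 0.05 and 0 had less, against 2.22% and 2.55% of all genes. Their median difference was 0.13. The 4 with the lowest p were P2ry13, Ctsb, Cd84 and Fabp5. P2ry13, a receptor for extracellular ADP on macrophages and microglia, read 5.31, 5.19, 5.63, 5.27 and 5.48 in WT replicates 1 to 5 and 5.72, 5.98, 6.05, 5.90 and 5.99 in KO replicates 6 to 10. The groups did not overlap and the difference of 0.55 ± 0.10 (SE) did not pass the test over all genes (limma adjusted p = 0.386).

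Ctsb, the lysosomal protease cathepsin B, did not overlap between genotypes either (0.24 ± 0.08), and Cd84, a receptor of the SLAM family on leukocytes, differed by 0.23 ± 0.09. Fabp5, a fatty acid carrier, was under the guide in both genotypes. Cd14, the endotoxin co-receptor of monocytes and macrophages, was chosen after its values were seen and differed by 0.11 ± 0.18.

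Related monocyte genes gave 1 of 13 higher in KO at unadjusted p under 0.05, against 2.22% of all genes. This was Ms4a6c, a membrane protein of monocytes and macrophages (0.38 ± 0.15). Next by p came Nr4a1, the nuclear receptor that Ly6c-low monocytes need (-0.44 ± 0.23), and Treml4 (0.13 ± 0.08). After them came Cd177, a surface protein of neutrophils and also of colon epithelium (0.65 ± 0.42). Related dendritic cell genes gave 0 of 18 (2.22% of all genes were higher and 2.55% lower), with a median difference of 0.06. Id2, a factor needed by several dendritic and lymphoid cells, Itgae, the CD103 integrin chain, and the lectin gene Cd207 (langerin), whose mean over 10 arrays was under the guide, differed by -0.37 ± 0.19, 0.21 ± 0.12 and -0.16 ± 0.10, and Clec9a, which is restricted to cross-presenting dendritic cells, was under the guide in both genotypes. Of 7 further growth factor and receptor genes 2 were at unadjusted p under 0.05. These were Csf2ra, a chain of the GM-CSF receptor (0.31 ± 0.13), and Csf3r, the G-CSF receptor of neutrophils and monocytes (0.47 ± 0.20). Il34, the second ligand of Csf1r, differed by 0.22 ± 0.15, and Csf3, which encodes G-CSF, was under the guide.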

How the data were processed

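RNA of 10 mouse colon tumours was hybridised to 1-colour Affymetrix arrays after whole-transcript amplification and biotin labelling, per the labels' protocols. For each array the authors deposited a log2 signal for 23747 probe sets. RMA and Partek are named in the submitters' processing notes without a version. The log base was not stated and was taken from the values. RMA makes the arrays alike, so a shift of all genes cannot be seen, and dim signals are compressed.

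The platform annotation gave 23111 probe sets 1 symbol each and left 636 unlisted. Symbols were updated through Entrez gene numbers. KO was compared with WT by lmFit and eBayes of limma 3.58.1 (R 4.3.3), checked on simulated data, with genotype as the one term and p-values adjusted over 23111 genes by Benjamini-Hochberg. Members, role lists and related lists were chosen with earlier results of these data known, so no test over a list was made. All members are named, those at unadjusted p under 0.05 and 7 others with every value, and up to 4 genes of each related list by lowest p. Identical arrays were looked for and 0 pairs found. The number of arrays limits the precision. Sequences are from RefSeq (GRCm38.p6). Alternatives left out arrays or dim genes, normalized again, changed the variance estimate or added a covariate.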

Additional observations from a re-analysis of the deposited data

How the results depend on the processing

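The number of the 38 genes higher in KO at unadjusted p under 0.05 was 11 to 17 with single arrays left out and 12 to 17 under the other settings run at this threshold, against 15. With at least 1.5-fold asked for as well it was 1 (Fcgr4), and at unadjusted p under 0.01 it was 10. Of the 15 genes, Itgax, Ms4a7, Fcer1g, Cd68, Csf1r, Spi1, Fcgr3, Mrc1, Adgre1, Tyrobp and Maf were at unadjusted p under 0.05 in all 19 settings. Cd86 kept it in 10, Fcgr4 in 14, Lgmn in 11 and Laptm5 in 9. With single arrays left out, Ly6c2, Flt3, Fcgr1, Trem2, Cx3cr1, Apoe and Siglec1 reached it in 1 to 3 settings each, higher in KO, and Cd163 in 1, lower in KO. Over all genes limma called 0 at adjusted p under 0.05, 0 to 2 with single arrays left out, 2 with dim genes left out, 1 with an intensity trend and robust estimation, 3 with all probe sets and 1 with the epithelium score as a covariate, and the lowest adjusted p of any of the 38 in these settings was 0.272. Genes higher in KO without overlap numbered 3 as reported, against 0.329% of all genes, and 3 to 12 with single arrays left out. The 12 were seen without KO replicate 6, where 0.948% of all genes were higher without overlap. The number was 1 after centring on the median, 1 after quantile normalization and 0 after cyclic loess. The median difference was 0.18 to 0.26 with single arrays left out and 0.31 with dim genes left out, since 30 genes then remain. No paired analysis was possible because the replicate numbers of the genotypes do not overlap. The 8 genes near background, the design of 5 against 5 tumours and the lack of a detection call limit what can be seen.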
